A study of Mus musculus with 4 samples.

Results

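The forkhead transcription factors are described here in mouse embryonic stem cells (ESC) treated with the histone deacetylase inhibitor MS-275. The members were all listed genes named Fox plus a letter from a to s and a number, leaving out Foxa1, Foxa2 and Foxd3. The rule gave 38 of 28250 listed genes, and all 38 were found in the mm9 annotation. Foxf1a, whose symbol ends in a letter, fell outside the rule, and no listed gene carried the symbol Foxp1 or Foxk2.

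Forkhead factors bind DNA through a winged-helix domain, and many of them choose cell fate in the embryo. Foxn4 acts in progenitors of the retina and the ventral spinal cord, where it favours amacrine and horizontal cells and V2b interneurons. Others are tied to signalling or to cell division. Insulin signalling through Akt keeps the Foxo factors out of the nucleus, Foxh1 carries Smad proteins to Nodal target genes, and Foxm1 drives mitotic genes.

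TBV2 is a mouse ESC line grown on feeder cells with leukaemia inhibitory factor (LIF). MS-275, also called entinostat, inhibits class I histone deacetylases. Poly(A) RNA was sequenced after 24 h of solvent (2 libraries) or of 5 µM MS-275 (2 libraries), all in the presence of LIF. The comparison asks what the inhibitor does to the transcriptome of ESC that are still held in self-renewal conditions. The labels do not say whether the replicates came from separate cultures, so the p-values measure the spread between these libraries, which may be technical. Feeder cells may have been present in all 4 libraries, and in bulk RNA fewer cells of a type and less RNA per cell cannot be told apart.

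The values are normalized expression signals made by the authors with Genomatix. The alignments deposited with the libraries numbered 9785619 to 23467935. Across members, values and alignments matched better between the replicates of a condition than within a library. The log2 ratio of value to alignments per exon length, repeated ones included, was taken over members. Its SD was 0.35 to 0.45 when values were set against alignments of the other replicate, and 0.56 to 0.94 within the same library. Foxs1, for example, was listed at 0 in solvent replicate 1, whereas 6 positions lay on it in the alignments of that library and 0 in those of solvent replicate 2. Replicate numbers below therefore name values and alignments as deposited, and which file belongs to which library within a condition cannot be told apart. The groups and their means are not touched by such an exchange.

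Changes are MS-275 minus solvent on log2(value + 0.005), called log2 fold changes, a scale that understates changes of low genes. Each is given with its standard error (SE) from limma and its Benjamini-Hochberg adjusted p over 20336 genes. Without a block for the replicate number, no member passed 0.05, 1 gene in all rose (0.00492% of those tested) and 0 fell (0%). At an unadjusted limma p under 0.05 stood 7 of the 28 members tested higher and 0 lower. Of all 20336 genes tested, 2974 were higher and 564 lower at that level. With the block, 8 of the 28 members tested rose and 2 fell. This was 28.6% and 7.14% of the members, and 21% and 6.46% of all genes tested, so the shares among forkhead genes lay near those of all genes. On distinct alignment positions, where 24 members were tested with limma-voom, 4 rose and 4 fell without the block (12.4% and 8.16% of all genes tested) and 9 rose and 6 fell with it (24% and 21.4%). Below, rose and fell mean an adjusted p under 0.05 with the block. The median log2 fold change was 0.27 over the 28 members and 0.20 over all genes tested. Quantile normalization took that 0.20 to -0.02, so log2 fold changes are to be read against it.

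Promoter stretches are shown for 4 members: Foxn4, Foxi3 and Foxr1, which had the highest log2 fold changes among members, and Foxo3, which had the highest mean value and was not called. Each is written 5′ to 3′ on the strand of its gene and ends at the base before the annotated gene start, from RefSeq windows (GRCm38.p6) matched exactly to mm9. Capitals mark CpG dinucleotides, the sites of DNA methylation. The stretches lie at chr5:114723817-114724020 on the minus strand (Foxn4), chr6:70906350-70906524 on the plus strand (Foxi3), chr9:44248952-44249201 on the minus strand (Foxr1) and chr10:41996562-41996751 on the minus strand (Foxo3).
Foxn4: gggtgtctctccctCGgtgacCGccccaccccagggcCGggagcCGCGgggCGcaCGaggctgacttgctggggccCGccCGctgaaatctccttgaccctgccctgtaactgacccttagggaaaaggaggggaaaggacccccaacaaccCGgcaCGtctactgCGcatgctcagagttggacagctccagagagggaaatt
Foxi3: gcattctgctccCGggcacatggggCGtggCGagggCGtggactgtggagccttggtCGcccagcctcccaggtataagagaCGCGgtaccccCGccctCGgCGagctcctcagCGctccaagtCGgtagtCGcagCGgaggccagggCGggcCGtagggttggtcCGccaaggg
Foxr1: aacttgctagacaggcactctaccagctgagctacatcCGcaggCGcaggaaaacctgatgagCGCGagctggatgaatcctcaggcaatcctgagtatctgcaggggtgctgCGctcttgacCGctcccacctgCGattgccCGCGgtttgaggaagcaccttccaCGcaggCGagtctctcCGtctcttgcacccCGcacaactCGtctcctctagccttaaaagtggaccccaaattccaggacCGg
Foxo3: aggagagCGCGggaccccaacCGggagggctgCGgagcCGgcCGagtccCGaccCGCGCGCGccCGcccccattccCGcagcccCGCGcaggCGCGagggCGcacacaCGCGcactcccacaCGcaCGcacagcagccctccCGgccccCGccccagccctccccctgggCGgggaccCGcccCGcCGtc
The Foxn4 stretch held 12 CpG in 204 bases, the Foxi3 stretch 17 in 175, the Foxr1 stretch 15 in 250 and the Foxo3 stretch 28 in 190. Members that rose and the member that was not called thus both had CpG upstream of their start. Of the 38 members, 23 had an entry in the RefSeq promoter table, with 24 windows between them. Each window holds the 250 bases before the RefSeq start, which for Foxn4, Foxi3 and Foxo3 lies inside the gene annotated on mm9. These windows had a median of 15.5 CpG and 61.4% GC, against 6 CpG and 52.4% GC over all 32851 promoters. The GC box GGGCGG, read on both strands, was found in 17 of 24 member windows and 32.7% of all promoters. TATAAA was found in 2 member windows and 12.4% of all promoters. The forkhead core TGTTTAC was found in 0 member windows and 3.17% of all promoters. GACGC, a core bound by Foxn-type factors, was found in 8 member windows and 22.6% of all promoters. No GACGC lay in the Foxn4 window.

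**Figure D1:**
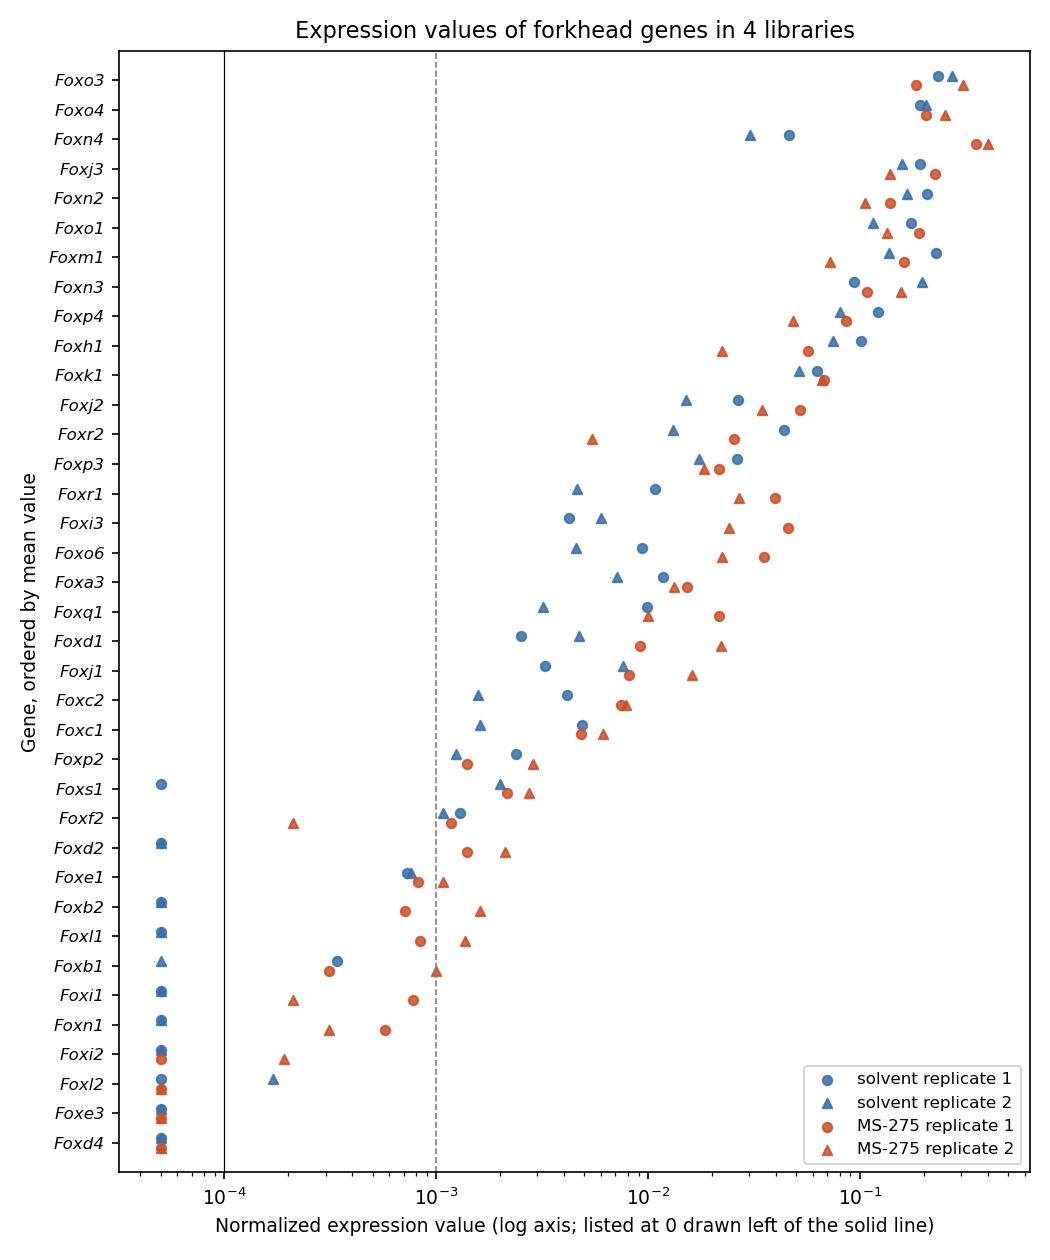
Normalized expression values (log axis) of the forkhead genes, ordered by mean value, in solvent (blue) and MS-275 (red) libraries, with replicate 1 as circles and replicate 2 as triangles; the dashed line marks 0.001, and values listed at 0 lie left of the solid line. Foxn4 moved from 0.0463 and 0.0303 with solvent to 0.351 and 0.403 with MS-275, while Foxo3 and Foxo4 stayed among the highest members in all 4 libraries.

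Foxn4 had the highest log2 fold change of all members. Its value was 0.0463 and 0.0303 in solvent replicates 1 and 2, and 0.351 and 0.403 in MS-275 replicates 1 and 2. Both MS-275 values lay far above both solvent values. The mean rose from 0.0383 ± 0.0113 (SD, n = 2) to 0.377 ± 0.0370 (SD, n = 2), which is 9.84-fold, and the ratio was 7.57 in replicate pair 1 and 13.3 in pair 2. The log2 fold change was 3.16 (SE 0.241, 95% interval 2.65 to 3.67, limma adjusted p = 1.21e-06 with the block). Without the block the SE was 0.395 and the limma adjusted p 0.0581. Leaving out solvent replicate 1 or 2 brought it to 1.76e-05 and 0.00357, and leaving out MS-275 replicate 1 or 2 to 0.0965 and 0.0921, in fits that assume the lone library to vary like the others. By log2 fold change Foxn4 ranked 58 from the top among 20336 genes tested. Among all 28250 listed genes, its value moved from rank 10327 to rank 1805 in replicate 1 and from 10220 to 2214 in replicate 2. Among the members themselves Foxn4 was 11th in both solvent libraries and first in both MS-275 libraries.

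The alignments showed the rise of Foxn4 along the whole gene. Foxn4 lies at chr5:114704173-114723816 on the minus strand, with 10 exon blocks that share no base with another annotated gene. On its exons 161 and 115 distinct alignment positions were found in solvent replicates 1 and 2, and 1103 and 1037 in MS-275. The log2 fold change on positions was 2.87 (SE 0.262, limma-voom adjusted p = 0.00439) without the block and 2.88 (SE 0.170, adjusted p = 1.27e-10) with it. Per kb and per 1000000 positions in exons, both MS-275 libraries exceeded both solvent libraries in all 10 exon blocks. In the first block, at the 5′ end, 9 and 0 positions with solvent stood against 38 and 20 with MS-275. In the last block, which holds the 3′ end, 95 and 76 stood against 715 and 593. Introns followed, with 46 and 31 positions against 418 and 312. Repeated positions made up 58.8% of the alignments on Foxn4 in MS-275 replicate 1 and 14.4% in solvent replicate 1, and the distinct positions count each place once. The alignments lay on both strands, 551 plus and 552 minus in MS-275 replicate 1, so RNA from the opposite strand could not be told apart. Of 23 genes tested within 500 kb of Foxn4, 6 rose and 1 fell, with a median log2 fold change of 0.35 and a highest value of 2.35 (Tmem119). Of all genes tested, 21% rose and 6.46% fell, with a median of 0.20.

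**Figure D2:**
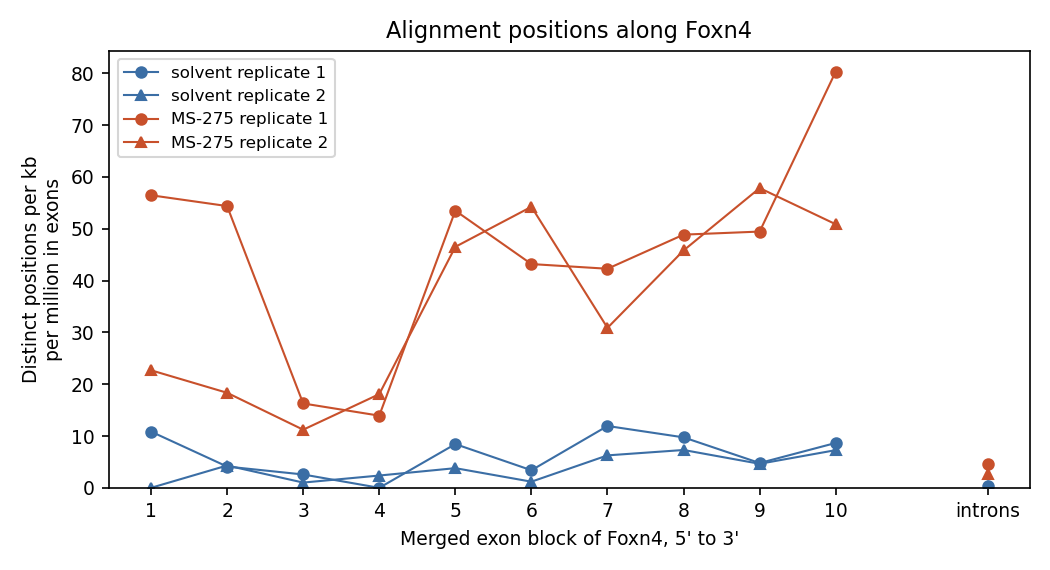
Distinct alignment positions per kb and per 1000000 positions in exons (y axis) along the 10 merged exon blocks of Foxn4 from 5′ to 3′ and in its introns (x axis), in solvent (blue) and MS-275 (red) libraries. In each exon block the MS-275 points lie above the solvent points, up to 80.3 and 50.9 against 8.66 and 7.27 in the last block.

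Foxp2, Foxb1 and Foxb2, also genes of the nervous system, had lower values than Foxn4, also per kb of exon. Foxp2, which acts in brain circuits for vocal learning, had 0.00238 and 0.00124 with solvent and 0.00139 and 0.00286 with MS-275, and the groups overlapped. Foxb1, of the developing hypothalamus, and its relative Foxb2 were under the filter. Foxb2 was listed at 0 in both solvent libraries and at 0.00071 and 0.00161 with MS-275.

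Genes tied to Foxn4 in neural progenitors are given beside it. Of 22 entries 16 were tested, of which 9 rose and 1 fell, with a median log2 fold change of 0.69 against 0.20 over all genes. Under quantile normalization the median of this list was 0.44, against -0.02 over all genes. Ptf1a, Rorb, Gata3, Gata2, Dll4, Prox1 and Dll1 were among those that rose. Dll1, a Notch ligand, went from 0.0503 and 0.0318 to 0.0756 and 0.14 (log2 fold change 1.26, limma adjusted p = 0.00657 with the block, 0.245 without). Prox1, a regulator of horizontal cells, went from 0.0073 and 0.00405 to 0.0229 and 0.0171 (1.24, limma adjusted p = 0.00593 with the block, 0.270 without). For both genes the MS-275 values lay above the solvent values. Prdm1, a regulator of photoreceptor fate, fell from 0.114 and 0.0702 to 0.0389 and 0.0137 (-1.72, limma adjusted p = 0.000334 with the block, 0.182 without). Of 10 neural progenitor markers, 5 rose, among them Nes, which encodes nestin (2.29), and 2 fell, Sox1 (-1.16) and Prom1 (-1.45). None of these lists had a gene past 0.05 without the block.

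Foxi3, of the craniofacial ectoderm and its placodes, rose most after Foxn4. Its values were 0.00424 and 0.00601 with solvent and 0.0456 and 0.0240 with MS-275, so the groups did not overlap. The mean went up 6.79-fold (log2 fold change 1.93, SE 0.333, limma adjusted p = 0.000557 with the block and 0.138 without). Positions on Foxi3 went from 12 and 5 to 43 and 60 (2.53, limma-voom adjusted p = 0.0162 without the block). Foxq1, an epithelial factor known from hair differentiation, had 0.00985 and 0.00319 with solvent and 0.0216 and 0.00999 with MS-275. The lower MS-275 value was close to the higher solvent value. The log2 fold change of Foxq1 was 0.86 (SE 0.292, limma adjusted p = 0.0389 with the block, 0.517 without), and it was not past 0.05 under quantile normalization, median-ratio scaling or on positions. Leaving out 1 library moved it between 0.43 (without solvent replicate 2) and 1.29 (without solvent replicate 1), with 0.44 without MS-275 replicate 1. Those fits did not use the pairing, and within pairs 1 and 2 the log2 fold change was 0.84 and 0.87. Of the exon bases of Foxq1, 41.6% are shared with A530084C06Rik on the opposite strand, so its reads are uncertain.

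Foxj1, the regulator of motile cilia, had 0.00325 and 0.00756 with solvent and 0.00812 and 0.0161 with MS-275. The groups did not overlap, but the test with the block gave a limma adjusted p of 0.0730 (log2 fold change 0.71, SE 0.281). On positions the limma-voom adjusted p was 0.0323 with the block and 0.447 without. Of 19 genes tested from a list of motile cilium genes tied to Foxj1, 7 rose and 0 fell, with a median of 0.55. Mlf1 (1.91) and Spag6 (1.78), a component of the central apparatus of the axoneme, had the highest changes, and Ccdc39 (-0.47, limma adjusted p = 0.119 with the block) the lowest. Quantile normalization took the median of this list to 0.18.

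Foxa3, a factor of liver and gut endoderm, had 0.0117 and 0.00709 with solvent and 0.0153 and 0.0133 with MS-275 (log2 fold change 0.44, limma adjusted p = 0.302 with the block). Foxn1 (thymic and hair epithelium) and Foxi1 (inner ear and kidney) were listed at 0 in both solvent libraries and above 0 in both MS-275 libraries, at 0.00021 to 0.00078. Foxe3, of the lens, was listed at 0 in all 4 libraries. Of 10 members of epithelia, glands, gonads and placodes, 4 passed the filter and 2 rose. Of 10 endoderm markers 9 were tested, 3 rose, among them Cxcr4 (2.35), and Hnf4a fell (-0.99), and the list's median of 0.42 became -0.09 under quantile normalization.

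Of 7 factors of mesoderm and mesenchyme 6 were tested, and Foxd1 was the one that rose. Foxd1, which marks the kidney stroma, had 0.00251 and 0.00471 with solvent and 0.00911 and 0.0221 with MS-275. The groups did not overlap, and the log2 fold change was 1.20 (SE 0.290, limma adjusted p = 0.00613 with the block, 0.246 without). Under quantile normalization it was not past 0.05, and without MS-275 replicate 2 the log2 fold change was 0.72. Positions on Foxd1 went from 15 and 6 to 48 and 15 (limma-voom adjusted p = 0.00855 with the block, 0.304 without). Per kb and scaled to the exon positions of each library, solvent replicate 1 (0.882) exceeded MS-275 replicate 2 (0.830). The groups of Foxd1 thus overlapped on positions. Foxc2, needed for lymphatic vessels, had 0.00413 and 0.00157 with solvent and 0.0074 and 0.00789 with MS-275 (0.71, limma adjusted p = 0.0564 with the block), and it passed on positions with the block (limma-voom adjusted p = 0.0253). Foxc1, Foxf2 and Foxs1 had log2 fold changes of 0.37, -0.13 and 0.33 (limma adjusted p with the block 0.315, 0.681 and 0.278). Foxd2 passed the filter only through the MS-275 libraries, at 0.0014 and 0.0021, and was listed at 0 with solvent. Foxl1, of gut mesenchyme, was listed at 0 with solvent and at 0.00084 and 0.00137 with MS-275.

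Several forkhead genes lie close together on a chromosome. Foxq1, Foxf2 and Foxc1 lie together on chromosome 13, with 64.8 kb between Foxq1 and Foxf2 and 175.2 kb between Foxf2 and Foxc1, and their log2 fold changes were 0.86, -0.13 and 0.37. Foxc2 and Foxl1 lie 9 kb apart on chromosome 8, and Foxd2 and Foxe3 16.2 kb apart on chromosome 4. Foxe3 was listed at 0 throughout, whereas Foxd2 was above 0 with MS-275.

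Markers of feeder fibroblasts are given beside the forkhead genes. Of 14 fibroblast markers, all tested, 7 rose and 0 fell, with a median log2 fold change of 0.61 (0.19 under quantile normalization). On positions with the block, 6 of 13 rose and 3 fell. Their summed value was 0.369 and 0.315 with solvent and 0.701 and 0.703 with MS-275, and no marker was listed at 0 in both solvent libraries. Col1a1, the main chain of type I collagen, went from 0.0146 and 0.0101 to 0.0681 and 0.110 (2.41), whereas Dcn, decorin, had -0.72 and was not past 0.05. The part of feeder RNA in the forkhead values was not tested. Pluripotent cell markers summed to 7.13 and 25.5 with solvent and to 5.46 and 14.1 with MS-275, and 5 of 12 fell (Tdh, Fgf4, Utf1, Esrrb and Pou5f1). On positions with the block, 0 of these 12 rose and 9 fell, where 21.4% of all genes fell.

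**Figure D3:**
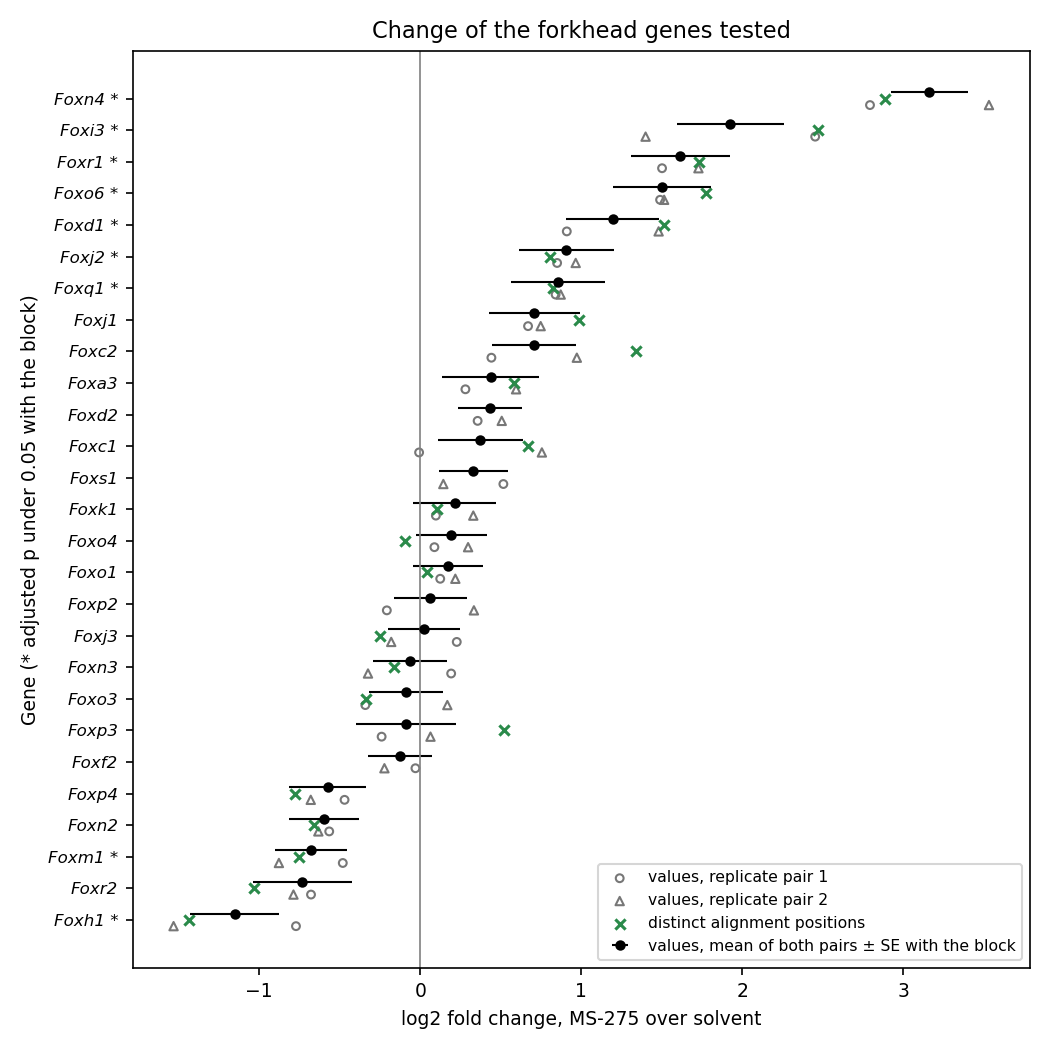
Log2 fold changes (x axis; above 0, higher with MS-275) for the forkhead genes tested (y axis), with the mean of both replicate pairs (black, ± SE of the fit with the block), each pair (open symbols) and the change on distinct alignment positions (green crosses). Foxn4 stands at 3.16, followed by Foxi3 at 1.93, and Foxh1 is lowest at -1.15.

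Foxo6 and Foxr1 rose from low levels. Foxo6, the Foxo member of the developing brain, had values of 0.0093 and 0.00457 with solvent and 0.0352 and 0.0223 with MS-275. The groups did not overlap, and the log2 fold change was 1.5 (SE 0.306, limma adjusted p = 0.00187 with the block, 0.234 without). On positions Foxo6 went from 27 and 23 to 87 and 97 (1.77, limma-voom adjusted p = 0.0148 without the block). Foxr1, a little studied member, had 0.0107 and 0.0046 with solvent and 0.0395 and 0.0268 with MS-275. Here too the groups stood apart, and the log2 fold change was 1.61 (SE 0.309, limma adjusted p = 0.00117 with the block, 0.217 without), with 19 and 14 positions against 57 and 61. Its relative Foxr2 on the X chromosome had 0.0436 and 0.013 with solvent and 0.0254 and 0.00545 with MS-275, and these overlapped (-0.73, limma adjusted p = 0.0890 with the block). On positions Foxr2 fell by 1.03 on the log2 scale (limma-voom adjusted p = 0.0022 with the block, 0.151 without).

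Foxo3, Foxo4 and Foxo1, the widely expressed targets of insulin and Akt signalling, were among the highest members and were not called with the block. Foxo3 had 0.233 and 0.272 with solvent and 0.183 and 0.306 with MS-275. Foxo4 had 0.192 and 0.204 with solvent and 0.204 and 0.252 with MS-275. Foxo1 had 0.174 and 0.115 with solvent and 0.190 and 0.135 with MS-275. The groups overlapped for Foxo3, Foxo1 and, by a small margin, Foxo4. With the block, the 95% interval of the log2 fold change was -0.57 to 0.40 for Foxo3, -0.27 to 0.66 for Foxo4 and -0.29 to 0.63 for Foxo1. On positions Foxo3 fell by 0.34 on the log2 scale (limma-voom adjusted p = 0.0318 with the block, 0.161 without).

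Of 28 genes tested from a list of Foxo targets, 6 rose and 1 fell, and the median was 0.28 (0.05 under quantile normalization). Txnip, which binds thioredoxin, rose by 1.53 (limma adjusted p = 0.0261 with the block), from 1.03 and 0.558 to 1.19 and 4.05, and the replicates with MS-275 differed widely. Bcl6, a transcriptional repressor, rose by 1.39 (limma adjusted p = 0.00191 with the block). Cdkn1b, the cell cycle inhibitor p27, fell from 0.329 and 0.678 to 0.143 and 0.298 (-1.17, limma adjusted p = 0.00126 with the block). Of 20 genes that regulate Foxo proteins, 1 rose, Pik3r1, a regulatory subunit of PI3 kinase (0.88, limma adjusted p = 0.0240 with the block), and 0 fell. On positions with the block, 7 of 27 Foxo targets rose and 6 fell, and 1 of 20 regulators rose and 6 fell. Values of mRNA carry no account of where Foxo proteins were in the cell.

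Foxh1, the Smad partner in Nodal signalling, had the lowest log2 fold change of all members. Its values were 0.101 and 0.0741 with solvent and 0.0569 and 0.0223 with MS-275. Both MS-275 values lay below both solvent values, and solvent exceeded MS-275 by 1.77-fold in pair 1 and 3.32-fold in pair 2. Foxh1 fell by 1.15 on the log2 scale (SE 0.276, limma adjusted p = 0.00574 with the block, 0.346 without). On positions it fell by 1.45 (limma-voom adjusted p = 0.0180 without the block), from 169 and 130 to 43 and 75. Without MS-275 replicate 1 the log2 fold change of Foxh1 was -1.74, and without MS-275 replicate 2 it was -0.56. Of 9 Foxh1 and Smad target genes tested, 1 rose and 2 fell. The Nodal antagonists Lefty2 and Lefty1 fell, Lefty2 from 0.179 and 0.245 to 0.0212 and 0.0158 (-3.20) and Lefty1 from 0.254 and 0.771 to 0.0480 and 0.0430 (-3.15). Their limma adjusted p was 1.71e-06 and 5.22e-06 with the block and 0.0581 for both without. Lhx1, a factor of anterior mesendoderm, rose by 1.24 (limma adjusted p = 0.00197 with the block). The median of the list was 0.18 in pair 1 and -0.42 in pair 2.

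Foxm1, the factor of mitotic gene expression, had values of 0.228 and 0.136 with solvent and 0.162 and 0.0719 with MS-275. The groups overlapped across replicates, while within each pair the MS-275 value was lower, and Foxm1 fell by 0.68 on the log2 scale (SE 0.225, limma adjusted p = 0.0343 with the block, 0.560 without). On positions it fell by 0.74 (limma-voom adjusted p = 0.0400 without the block), from 892 and 992 to 450 and 775. Within pairs 1 and 2 Foxm1 changed by -0.48 and -0.88 on the log2 scale. Fits with 1 library left out do not use the pairing, so they also carry the difference between replicates. In them the log2 fold change of Foxm1 was -0.32 and -1.04 without solvent replicate 1 and 2, and -1.24 and -0.12 without MS-275 replicate 1 and 2. Of 21 genes tested from a list of its mitotic targets, 0 rose and 1 fell, Cenpa, which encodes the centromeric histone H3 variant (-0.83, limma adjusted p = 0.0283 with the block). The median was -0.26. On positions with the block, 13 of 21 fell, where 21.4% of all genes fell.

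Among the other broadly expressed members, Foxj2 was the one called. Foxj2 rose by 0.91 (SE 0.296, limma adjusted p = 0.0319 with the block, 0.549 without), from 0.0266 and 0.0151 to 0.0520 and 0.0343. It was not past 0.05 under quantile normalization or median-ratio scaling, and without solvent replicate 2 the log2 fold change was 0.58. Foxj3 had 0.192 and 0.157 with solvent and 0.226 and 0.138 with MS-275 (0.02), and its sign turned on positions (-0.25). Foxn2 had 0.207 and 0.167 with solvent and 0.138 and 0.106 with MS-275. The Foxn2 groups did not overlap, and the log2 fold change was -0.60 (limma adjusted p = 0.0522 with the block). On positions Foxn2 fell by 0.66 (limma-voom adjusted p = 0.0246 without the block). Foxn3, a repressor linked to cell cycle checkpoints, had 0.0933 and 0.197 with solvent and 0.107 and 0.156 with MS-275, and the groups overlapped. Foxp4 had a log2 fold change of -0.58 (limma adjusted p = 0.0878 with the block), and on positions it fell by 0.78 (limma-voom adjusted p = 0.0380 without the block). Foxk1, linked to muscle progenitors, had 0.0628 and 0.0513 with solvent and 0.0676 and 0.0658 with MS-275 (0.21, limma adjusted p = 0.576 with the block). Foxp3, the factor of regulatory T cells, cannot be read: 103 of its 113 exon positions in solvent replicate 1 lay on bases shared with other genes. The widely expressed members, counted with Foxm1, Foxo1, Foxo3 and Foxo4 but without Foxp3, numbered 10. All 10 were tested, 1 rose (Foxj2) and 1 fell (Foxm1), and the median was -0.02.

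The 4 genes of the Foxn group can be set side by side. Foxn4 had a log2 fold change of 3.16, Foxn2 of -0.60 and Foxn3 of -0.07, and Foxn1 was at 0.00057 and 0.00031 with MS-275 and listed at 0 with solvent.

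Corepressors and partners of forkhead factors had a median log2 fold change of -0.20. Of 20 tested, 1 rose and 5 fell (Tle3, Ctbp2, Smad3, Ncor1 and Tle4), and on positions with the block 2 rose and 10 fell. Tle3, a Groucho corepressor, went from 0.235 and 0.421 to 0.121 and 0.107 (-1.43, limma adjusted p = 0.00062 with the block, 0.111 without). Ctbp2, another corepressor, went from 0.557 and 0.720 to 0.415 and 0.149 (-1.33, limma adjusted p = 0.00696 with the block). Hdac1, a class I deacetylase and target of MS-275, had 0.0311 and 0.165 with solvent and 0.0423 and 0.360 with MS-275 (0.75, limma adjusted p = 0.0343 with the block, 0.803 without), and its replicates differed more than its groups.

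**Figure D4:**
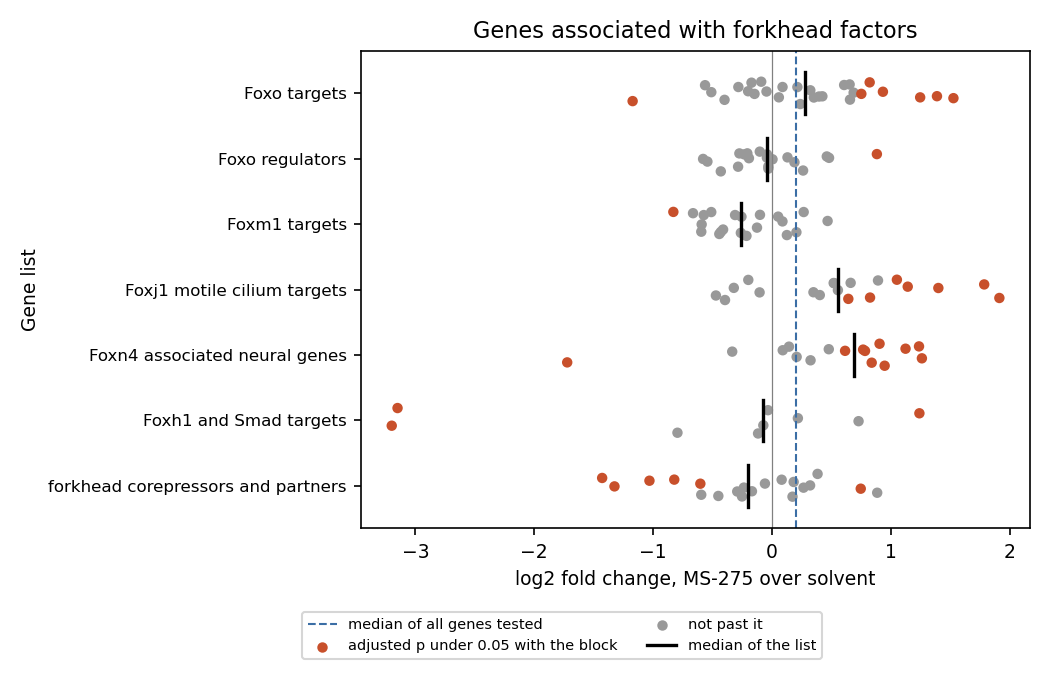
Log2 fold changes (x axis; above 0, higher with MS-275) for genes tied to forkhead factors, in 7 lists (y axis), with genes past an adjusted p of 0.05 with the block in red, list medians as black bars and the median of all genes tested, 0.20, as a dashed line. The Foxn4 list has its median at 0.69, and Lefty2 and Lefty1 stand at -3.20 and -3.15.

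Counted without a test, 8 members had at least a 2-fold higher MS-275 value in pair 1 and in pair 2, where values under 0.001 were set to 0.001. Foxn4, Foxi3, Foxr1, Foxo6, Foxd1, Foxj1 and Foxq1 were among them. Over all 28250 genes this share was 11.5%, and 2.04% were at least 2-fold lower, against 0 members. With a floor of 0.005 or 0.01 the count was 4, and without pair 1 it was 13. Of the 28 members tested, 14 had both MS-275 values above both solvent values and 2 (Foxh1 and Foxn2) had both below, where the shares of all genes tested were 32.3% and 12%. Of the 10 members not tested, 8 had a value above 0 in at least 1 library, and Foxd4 and Foxe3 were listed at 0 in all 4. Of 8 members listed at 0 in both solvent libraries, 5 (Foxb2, Foxd2, Foxi1, Foxl1 and Foxn1) were above 0 in both MS-275 libraries. Over all 28250 genes, too, fewer were listed at 0 with MS-275. Genes at 0 began at rank 20270 and 20795 with solvent, and at 22195 and 22214 with MS-275. The share of all genes that went from 0 to above 0 was not counted.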

How the data were processed

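The expression lists of 4 libraries (TBV2 ESC, 2 with solvent and 2 with MS-275) and their alignments were used. Libraries were grouped by their titles and agent labels, and those named duplicates were taken as replicate 2. The vehicle was not resolved (the study's differentiation assay used DMSO, the control alignments are named ETOH), so the text says solvent.

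As deposited by the authors, each gene has a normalized expression signal made with Genomatix from reads mapped to mm9. The formula, aligner and versions are not given in the sources used here. The signal is not a count, so no count test was run on it. The authors also deposited tables of ratios between conditions, which were not used.

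Tests covered the 20336 genes that reached 0.001 in 2 or more libraries, on log2(value + 0.005) with limma 3.58.1 (lmFit, eBayes with a trend) in R 4.3.3, two-sided. Both fits, without and with the replicate number as a block, are given. In the authors' ratio tables the replicate 1 columns of both conditions carry the word old, and deviations from the group means correlated at 0.764 over 20336 genes between libraries of the same number, so the numbers were taken to pair the libraries.

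The alignments, 35 bases each, were reduced to distinct positions, because replicate 1 of each condition held repeated positions (53.2% and 54.4%) and replicate 2 none. Positions were counted by their middle base on GENCODE M1 exon bases of 1 gene only, scaled by median ratios and tested with limma-voom where 2 or more libraries had 10 positions (16783 genes). Counting was without strand. Roles and lists came from general knowledge; the members and lists were chosen with earlier results of these data known. Named members were those called with the block, those passing the fold rule, the Foxn group and the highest by mean value; 2 genes per list in each direction were named, and further genes of a list were named after their values were seen. Alternatives were other pseudocounts, filters, scalings, folds and floors, eBayes without a trend, distinct positions, and each library left out. Fits with a library left out had no block, so they did not use the pairing. The steps were tested on simulated data. Some genes that entered the counts are not reported here by name and not drawn. Python 3.11.15 with numpy 2.4.6, pandas 2.3.3 and matplotlib 3.10.9 was used.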

Additional observations from a re-analysis of the deposited data

How the results depend on the processing

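Across all alternatives, 216 values of named members kept their direction and side of the threshold, 64 passed it newly and 14 turned. Without the block 0 members were called in either direction, as with no filter with or without the block, where 0 genes in all were called and limma reported zero variances. With the replicate block, 8 members were higher and 2 lower, with pseudocounts of 0.001 or 0.02 and the block 8 and 2 each, with a mean value of at least 0.01 and the block 5 and 2 (1 and 0 without it), with quantile normalization and the block 5 and 5, with median-ratio scaling and the block 6 and 5. On distinct positions they were 4 and 4 (without the block) and 9 and 6 (with it). Leaving out 1 library gave 0 to 1 higher and 0 lower, and such a fit assumes that the lone library varies like the others; the 1 came without solvent replicate 1 or 2. Genes of the 7 forkhead lists called higher and lower were 0 and 0 without the block, 25 and 10 with it, 1 and 2 at a mean of at least 0.01, 11 and 18 on positions, 24 and 9, 19 and 9 with the block and the lower and higher pseudocount, 13 and 9 with the mean filter and the block, 15 and 24 with quantile normalization and the block, 20 and 27 with median-ratio scaling and the block, and 29 and 42 on positions with the block; leaving out 1 library gave 0 higher and 0 to 2 lower.

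Foxn4 (3.16, limma adjusted p = 0.0581) passed the threshold with the block (3.16), a mean filter (3.16 with or without the block), positions (2.87, with the block 2.88), and with the block under pseudocounts of 0.001 (3.29) and 0.02 (2.78), quantile normalization (3.01) and median-ratio scaling (2.89). Its adjusted p ranged from 1.02e-10 to 0.259 over these and the other alternatives. Leaving out 1 library gave 2.89 to 3.43, past the threshold without solvent replicate 1 (limma adjusted p = 1.76e-05) or 2 (0.00357).

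The fold rule gave 8 higher and 0 lower, 4 higher with floors of 0.005 or 0.01, 2 lower at 1.5-fold or after median-ratio scaling, and, without 1 replicate pair, 9 to 13 higher and 0 to 2 lower. The values that turned were those of Foxj3 (0.02; -0.26 with median-ratio scaling, -0.25 on positions, both with or without the block; -0.32 to 0.37 when 1 library was left out), Foxo4 (0.19; -0.090 with median-ratio scaling, with or without the block, -0.10 on positions, -0.093 on positions with the block), Foxn3 (-0.07; -0.59 to 0.45 when 1 library was left out) and Foxo3 (-0.09; -0.45 to 0.28). The cause was not tested.

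Over all genes, 1 rose and 0 fell without the block, and 4277 and 1314 with it. Median-ratio scaling and the block gave 3379 and 2864, and quantile normalization and the block 2828 and 2681. The numbers on positions were 2079 and 1370, and 4033 and 3598 with the block. With the block, quantile normalization called 17.9% of members higher and 17.9% lower, against 13.9% and 13.2% of all genes. Under median-ratio scaling these shares were 21.4% and 17.9%, against 16.6% and 14.1%. The mean filter gave 26.3% and 10.5%, against 18.7% and 7.4%. Pseudocounts of 0.001 and 0.02 gave 28.6% and 7.14% each, against 20.7% and 6% and against 18.6% and 5.69%. Whether these shares differ was not tested.

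With 2 libraries a group, the precision of a single member is low. Members under 0.01 rested on few positions (12 and 5 for Foxi3 with solvent), and the depth behind a value is not known from the value itself. Whether values and alignments were exchanged between replicates was not resolved, which leaves the group comparison as it is.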

Other observations

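Intron positions were also counted for members other than Foxn4. Per kb and per 1000000 positions in exons, introns of Foxr1 had 0.156 and 0.354 with solvent and 0.863 and 0.707 with MS-275, and those of Foxa3 had 0.0528 and 0.0370 against 0.456 and 0.166. In both genes the groups did not overlap. Introns of Foxm1 had 1.19 and 2.02 with solvent and 0.816 and 1.15 with MS-275, and those of Foxn2 had 1.05 and 0.653 against 0.682 and 0.453. These values were not tested.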
